A study of Mus musculus with 3 samples.

Results

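The Hox genes of the mouse were followed through a cardiac differentiation of male F1 stem cells of the cross C57BL/6J x CAST/EiJ. Members were the genes whose symbol is Hox, a cluster letter from a to d and a number, with nothing after it. Of the 39 such genes in the annotation, 35 were listed in at least 1 of the 3 count tables, among 27886 genes in all. Hoxa6, Hoxb8, Hoxd4 and Hoxd12 were not analysed here. The table of embryonic stem cells listed 26 members, that of the precursor cultures 29 and that of the cardiac bodies 29, and 17 members were listed in all 3 tables. A table left out genes that stayed under 1 count in each of its cells, and a member missing from a table is treated as having no value there rather than 0.

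The 3 samples carried no treatment other than the culture itself and share 1 genetic background. Mouse embryonic stem cells (mESC) grew in medium with LIF and inhibitors that hold the ground state. Cardiac precursor cell cultures (CPCC) were derived from them in vitro. Cardiac bodies (CB) are floating aggregates that were picked while beating, and the label calls their cells mature cardiac cells. The data hold 215 mESC, 175 CPCC and 232 CB cells, each captured in a chamber of a microfluidic chip, in 3, 2 and 3 library pools. The clone or culture behind a pool is not named, so each group is 1 sample, no test between groups could be made and no p-value is given. Values per pool are printed to show the spread.

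Summed gene counts were 351190067 in mESC, 275992310 in CPCC and 338221926 in CB, and median counts per cell were 1528316, 1437414 and 1397869. No cell name was shared between tables and no pair of cells had identical values. Of 8 listed pluripotency markers, 7 were lower by 2-fold or more in CB than in mESC (11.3% of all genes were) and 1, Klf4, was higher, at 56.8 and 129 CPM in mESC and CB. All 10 fibroblast markers were higher by 2-fold or more in CB than in CPCC (17% of all genes were). None of 12 cardiomyocyte markers was found in most cells of any cell cluster of CB, so the cells are called CB cells here by their culture.

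Hox genes encode homeodomain transcription factors that give cells their position along the head to tail axis. They lie in 4 clusters, and within a cluster the genes are numbered by paralog group from the end that is switched on first and most anteriorly to the end that is switched on last and most posteriorly. Their proteins bind DNA together with TALE homeodomain partners of the Pbx and Meis families, retinoic acid induces the anterior genes, Cdx factors the central and posterior genes, and Polycomb complexes keep the clusters silent. In the heart field, Hoxb1 and Hoxa3 mark the posterior part of the second heart field, while limb, tail and urogenital tissues use the posterior genes. Here paralog groups 1 to 4 are called anterior, 5 to 8 central and 9 to 13 posterior.

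In GRCm38 coordinates of the GENCODE annotation, cluster A lay at chr6:52155590-52260880, cluster B at chr11:96194316-96368256, cluster C at chr15:102921103-103036852 and cluster D at chr2:74668310-74765142. The listed members numbered 10, 9, 9 and 7. The authors counted on another annotation release of the same build.

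The start regions of Hoxa2, Hoxb4, Hoxd8 and Hoxa13 are shown because the first 3 are an anterior pair and a central gene whose level was 2-fold or more higher in CB than in both other cultures, and Hoxa13 is the most posterior gene of cluster A. The sequences are from RefSeq on GRCm38.p6 and cover the 250 bases before the annotated start, at chr6:52164832-52165081 (minus strand), chr11:96318017-96318266 (plus strand), chr2:74704365-74704614 (plus strand) and chr6:52260881-52261130 (minus strand). RefSeq starts were given for 18 of the 35 members, with 20 starts. Capitals mark matches, on either strand, to any of 5 motifs, and no matches overlapped in these 4 windows. The TATA box was searched as TATAAA, and the CCAAT box by the letters of its name. A site for a Hox-Pbx pair was searched as TGATNNAT. The core of retinoid receptor sites was searched as AGGTCA, and a Cdx site as TTTATG.
Hoxa2: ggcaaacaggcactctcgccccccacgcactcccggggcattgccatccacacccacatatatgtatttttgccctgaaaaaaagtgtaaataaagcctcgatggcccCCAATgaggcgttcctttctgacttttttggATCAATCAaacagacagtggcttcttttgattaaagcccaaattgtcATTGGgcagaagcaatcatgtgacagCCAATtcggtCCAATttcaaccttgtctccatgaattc
Hoxb4: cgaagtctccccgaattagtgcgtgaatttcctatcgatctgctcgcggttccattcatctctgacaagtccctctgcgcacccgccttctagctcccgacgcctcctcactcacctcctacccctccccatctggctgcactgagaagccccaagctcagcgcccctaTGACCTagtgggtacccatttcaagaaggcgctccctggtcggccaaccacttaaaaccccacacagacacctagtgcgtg
Hoxd8: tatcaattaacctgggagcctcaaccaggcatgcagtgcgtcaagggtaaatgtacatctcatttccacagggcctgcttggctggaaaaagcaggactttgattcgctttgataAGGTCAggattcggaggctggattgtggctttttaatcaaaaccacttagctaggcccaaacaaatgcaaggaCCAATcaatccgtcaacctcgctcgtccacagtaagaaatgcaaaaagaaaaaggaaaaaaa
Hoxa13: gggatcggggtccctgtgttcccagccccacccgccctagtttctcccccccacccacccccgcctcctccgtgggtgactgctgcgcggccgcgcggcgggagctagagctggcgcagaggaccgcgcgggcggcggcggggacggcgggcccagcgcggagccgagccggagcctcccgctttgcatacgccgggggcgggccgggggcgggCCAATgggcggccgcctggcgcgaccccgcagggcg
The Hoxa2 window held 4 CCAAT boxes and 1 Hox-Pbx match, Hoxb4 held 1 AGGTCA, Hoxd8 held 1 CCAAT box and 1 AGGTCA, and Hoxa13 held 1 CCAAT box. GC content was 46.4% for Hoxa2, 58% for Hoxb4, 44.4% for Hoxd8 and 80% for Hoxa13, against a median of 52.4% over all 32851 promoter windows of that length. Hoxa13 held 35 CpG dinucleotides, where Hoxa2 and Hoxd8 held 6 each and Hoxb4 held 14. Across the 20 Hox windows the median was 13 CpG, against 6 over all windows. CCAAT was found in 10 of the 20 Hox windows (50%) and in 33.8% of all windows, AGGTCA in 25% and 14.02%, TGATNNAT in 15% and 7.68%, TTTATG in 15% and 10.8% and TATAAA in 10% and 12.4%. A match describes the letters only.

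Hox transcripts were scarce in every culture and most abundant in CB. The members summed to 19.8 CPM (a gene's counts divided by all gene counts of its sample, on the usual scale) in mESC, 13.4 in CPCC and 44.7 in CB. The exact 95% Poisson intervals were 19.3 to 20.3, 12.9 to 13.8 and 43.9 to 45.4 CPM, and cover counting error only, since these libraries have no molecular identifiers and their reads are not independent. By pool, the sum was 32.2, 16.4 and 11.1 CPM in mESC, 16.0 and 10.9 CPM in CPCC, and 58.0, 24.6 and 57.3 CPM in CB. The lowest CB pool therefore lay below the highest mESC pool, so the pools of these 2 cultures overlapped, while every CB pool lay above both CPCC pools.

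Over the 17 members listed in all 3 tables, a set chosen after the values were seen, mESC summed to 12.1, CPCC to 8.66 and CB to 26.2 CPM. The order of the cultures was the same. Fewer expressing cells and less RNA per cell cannot be told apart in such a sum, so the share of cells was measured as well.

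The share of cells with a Hox transcript had another order than the summed level. At least 1 count of any member was found in 155 of 215 mESC (72.1%, exact Clopper-Pearson 95% interval 65.6 to 77.98%), 60 of 175 CPCC (34.3%, 27.3 to 41.8%) and 101 of 232 CB cells (43.5%, 37.1 to 50.2%). After every cell was thinned to 430000 counts, which left out 22, 18 and 22 shallower cells, the shares were 70.5%, 31.8% and 42.4%. At 10 or more counts they were 48.8%, 22.9% and 37.1%. By pool, at 1 or more counts, mESC gave 81.1%, 72.7% and 54.2%, CPCC 44.3% and 26.0%, and CB 49.3%, 33.3% and 48.2%. At that limit the mESC pools lay above all others, but in thinned cells mESC pool 3 (47.7%) lay below CB pool 1 (51.8%). At 10 or more counts mESC pool 3 (29.2%) lay below CPCC pool 1 (30.4%) and CB pools 1 and 3 (47.8% and 42.4%).

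Cells with a Hox transcript were somewhat deeper in mESC, with a median of 1580555 counts against 1254289 in cells without one. In CPCC the medians were 1353580 and 1437414, and in CB 1482863 and 1361176. Of the bearing cells, 74 of 155 mESC, 34 of 60 CPCC and 46 of 101 CB cells held 1 member, and the highest number of members in a cell was 7, 20 and 7. Most bearing cells thus showed only a small part of a cluster, which in counts this low need not be all that was transcribed.

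**Figure D1:**
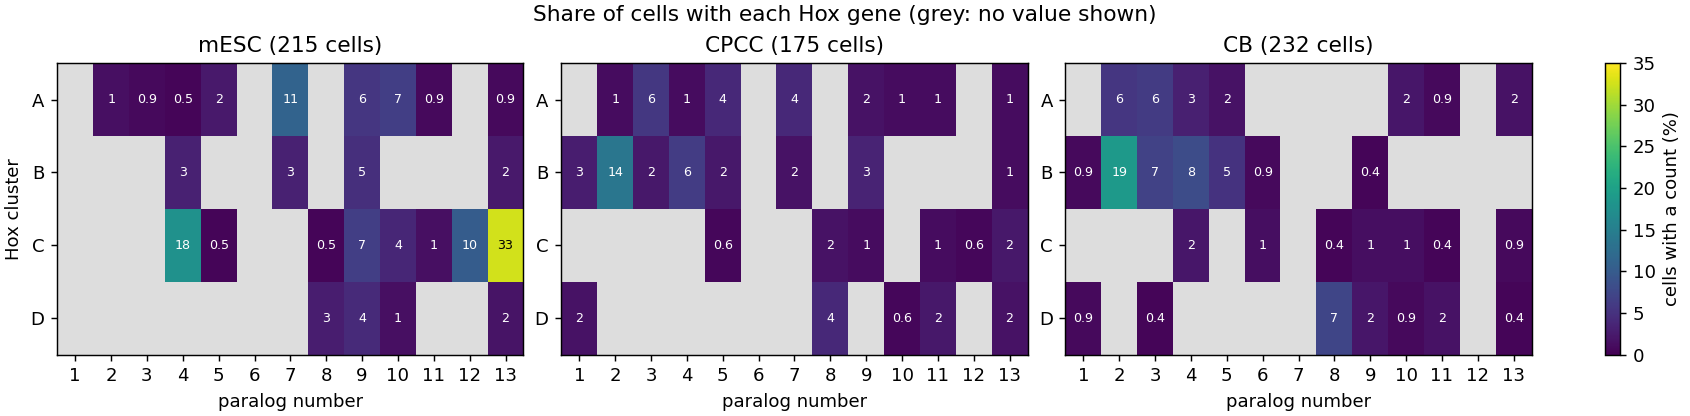
Share of cells with at least 1 count of each Hox gene in mESC, CPCC and CB, with paralog number across and cluster A to D down. Colour and figures give the percent of cells and grey marks genes with no value shown. In mESC the brightest tile is Hoxc13 (32.6%), in CPCC Hoxb2 (13.7%) and in CB Hoxb2 (19.0%).

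The grid of shares shows 3 patterns. In mESC the tiles with most cells lay apart, at Hoxa7, Hoxc4 and the Hoxc12 and Hoxc13 end of cluster C. In CPCC the tile with most cells was Hoxb2. In CB the fuller tiles formed an anterior block, from Hoxa2 to Hoxa4 and from Hoxb2 to Hoxb5, with Hoxd8 beside it.

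Anterior genes took most of the Hox signal in CB and posterior genes the largest part in mESC. Anterior members summed to 5.83 CPM in mESC, 7.34 in CPCC and 30.2 in CB, and central members to 3.84, 2.76 and 10.7 CPM. Posterior members summed to 10.1 CPM in mESC, 3.27 in CPCC and 3.84 in CB. Of these counts a lone CPCC cell of pool 1 held 439, and without it the CPCC sum was 1.70 CPM. By pool the posterior sum was 13.3, 10.4 and 6.30 CPM in mESC and 5.48 and 1.21 CPM in CPCC. The CB pools gave 15.9, 1.77 and 0.494 CPM, so in CB the posterior sum lay mostly in pool 1. That pool lay above every mESC pool, so the pools of mESC and CB overlapped. Counts per kilobase of exon, which make genes of unequal length comparable, gave anterior genes 31.4% of the Hox signal in mESC, 53.6% in CPCC and 65.6% in CB. The posterior part was 48.3%, 23.5% and 9.09%. Without that cell, a setting chosen after the values were seen, the CPCC parts were 60.3% anterior and 14.1% posterior.

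The shares of cells had the same order for posterior genes in mESC against the others. A posterior member was found in 124 of 215 mESC (57.7%), 19 of 175 CPCC (10.9%) and 19 of 232 CB cells (8.19%). Anterior members had a count in 71 mESC (33.0%), 43 CPCC (24.6%) and 85 CB cells (36.6%). The posterior share was 61.1%, 62.3% and 43.8% in the mESC pools, 20.3% and 3.12% in the CPCC pools and 15.9%, 7.69% and 2.35% in the CB pools. The mESC pools did not overlap those of the other cultures, and the pools of CPCC and CB did.

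By cluster, cluster A gave 9.43 CPM in mESC, 6.23 in CPCC and 16.9 in CB, and cluster B gave 2.91, 4.72 and 16.7 CPM. Cluster C gave 6.23, 0.609 and 3.60 CPM, and cluster D 1.21, 1.81 and 7.45 CPM. Cluster C was thus found in 113 of 215 mESC (52.6%) but in 7 of 175 CPCC (4%) and 13 of 232 CB cells (5.60%). A count from cluster B was seen in 27 mESC (12.6%), 35 CPCC (20%) and 67 CB cells (28.9%), with the largest share in CB.

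Each gene was then compared between cultures as a log2 ratio of CPM + 1, which understates the change of low genes. Between CB and mESC, 20 members were listed in both tables. Of these, 7 were higher by 2-fold or more in CB (24.9% of all 19855 genes were) and 1 was lower (11.3% of all genes were). The higher genes were Hoxa2, Hoxa3, Hoxa4, Hoxa5, Hoxa13, Hoxb4 and Hoxd8, and the lower one was Hoxc13. Hoxa5 (1.05) and Hoxa13 (1.03) lay close to the threshold, and came to 0.98 and 0.96 with edgeR TMM factors and to 0.96 and 0.95 with DESeq2 size factors. Hoxa4 (1.18) came to 0.59 without the CB cell of highest Hox counts. In CB, Hoxa4 gave 1.45 CPM, Hoxa5 1.37 and Hoxa13 1.13, and 0.635, 0.690 and 0.652 CPM without the cell that held most counts of each. The median was 0.17, beside 0.13 over all genes, which is close to the shift of the whole table. The medians were 1.28 for the 6 anterior members, 1.05 for the 3 central ones and -0.30 for the 11 posterior ones, of which 3 were higher and 8 lower.

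Between CB and CPCC, 23 members were listed in both. Of these, 7 were higher by 2-fold or more in CB, where 17% of all 20995 genes were, and 0 were lower, where 7.54% of all genes were. They were Hoxa2, Hoxa3, Hoxa4, Hoxb2, Hoxb4, Hoxb5 and Hoxd8, all from paralog groups 2 to 8. The median was 0.21, beside 0.14 over all genes. Hoxa4 (1.14) came to 0.55 without that same cell. This comparison and the last one share the CB cells.

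Between CPCC and mESC, 23 members were listed in both and 0 were higher by 2-fold or more, where 13.4% of all 20272 genes were. Hoxa7, Hoxa9 and Hoxc13 were lower by 2-fold or more (3 of 23, where 6.38% of all genes were). Hoxa9 (-1.01) came to -0.94 when cells were weighted equally, and Hoxa7 (-1.22) to -0.95 without the cell of highest Hox counts. The median was -0.08, beside -0.02 over all genes. Of the 5 anterior members in this comparison 3 were higher and 2 lower, none of them by 2-fold, and Hoxb2 and Hoxb3 had no value in mESC.

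Hoxb2, an anterior gene known from the hindbrain and the neural crest that populates the branchial arches, had the highest level per kilobase in CB. It gave 10.8 CPM in CB, in 44 of 232 cells (19.0%), and 2.62 CPM in CPCC, in 24 of 175 cells (13.7%). It was not listed in mESC. The CB pools gave 12.3, 7.03 and 13.6 CPM and the CPCC pools 1.57 and 3.59 CPM, so the pools did not overlap, and the log2 ratio was 1.71. Of its exon bases, 27.3% are shared with the antisense gene Hoxb3os, and without a stated use of strand the reads of such a pair cannot be told apart.

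Hoxa2, which sets the identity of the second branchial arch, gave 5.38 CPM in CB against 0.194 in mESC and 0.163 in CPCC. It was found in 13 CB, 3 mESC and 2 CPCC cells. In CB, by pool, it gave 1.94, 1.47 and 10.5 CPM, in mESC 0.615, 0 and 0 CPM and in CPCC 0.337 and 0 CPM. All 3 CB pools lay above the other 5, and 1 cell of CB gave 36.1% of the counts, without which the level was 3.46 CPM. The log2 ratio was 2.42 against mESC and 2.46 against CPCC, and 15.0% of its exon bases are shared with Gm28308 on the same strand.

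Hoxa3, needed for the third arch and the thymus and parathyroid, gave 4.70 CPM in 14 CB cells, 0.0751 CPM in 2 mESC and 0.511 CPM in 10 CPCC cells. The CB pools gave 2.19, 1.27 and 8.95 CPM, again above those of mESC (0.239, 0 and 0 CPM) and CPCC (0.480 and 0.540 CPM). A lone CB cell held 41.5% of its counts, and without it the level was 2.77 CPM. Antisense genes share 25.4% of its exon bases. Hoxb3 gave 0.799 CPM in 16 CB cells and 0.152 CPM in 4 CPCC cells, with CB pools at 0.308, 0.774 and 1.03 CPM and CPCC pools at 0.315 and 0 CPM, which overlapped. Of its exon bases, 52.9% are shared with Hoxb3os, so its values are uncertain.

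Hoxb4, a hindbrain gene also known for its effect on blood stem cells, gave 2.03 CPM in 19 CB cells (8.19%), 0.162 CPM in 7 mESC and 0.301 CPM in 11 CPCC cells. In CB, by pool, it gave 3.35, 1.73 and 1.73 CPM, in mESC 0.118, 0.306 and 0.0194 CPM and in CPCC 0.457 and 0.154 CPM. The CB pools lay above the other 5, and no overlapping exon was annotated. The log2 ratio was 1.38 against mESC and 1.22 against CPCC.

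Hoxb5, a central gene known from the gut and lung mesenchyme and from vessels, gave 2.30 CPM in 12 CB cells and 0.134 CPM in 4 CPCC cells. The CB pools gave 0.257, 3.83 and 1.79 CPM and the CPCC pools 0.0824 and 0.182 CPM. The lowest CB pool lay close to the higher CPCC pool. Hoxd8, a central gene of cluster D, gave 6.03 CPM in 17 CB cells, 0.461 CPM in 6 mESC and 1.33 CPM in 7 CPCC cells. In CB, by pool, it gave 9.67, 3.93 and 6.38 CPM, in mESC 0.434, 0.342 and 0.648 CPM and in CPCC 0.0974 and 2.49 CPM, so those of CB lay highest. A lone CPCC cell held 60.1% of the counts there, and without it the CPCC level was 0.535 CPM.

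Per kilobase of exon, Hoxb2 (3.10 CPM per kilobase), Hoxa2 (3.03) and Hoxd8 (2.20) were the highest members in CB.

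The posterior member found in most mESC was Hoxc13, the last gene of cluster C, known from hair and nail. A count of it was seen in 70 mESC (32.6%), 4 CPCC (2.29%) and 2 CB cells (0.862%), at 3.16, 0.156 and 0.210 CPM. The mESC value is part of a posterior sum of 10.1 CPM, so most of that sum came from other members. In mESC, by pool, it gave 3.23, 4.81 and 0.890 CPM, in CPCC 0.285 and 0.035 CPM and in CB 0, 0.00757 and 0.487 CPM. The mESC pools lay above all others. A lone CB cell held 98.6% of the counts in that culture.

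The other mESC members outside the rule, chosen after their values were seen, were Hoxc4, Hoxa7 and Hoxc12. Hoxc4 was found in 38 mESC (17.7%), at 2.39, 1.50 and 0.0871 CPM by pool, and Hoxa7 in 24 mESC (11.2%), at 5.84, 0.532 and 0.0190 CPM. Hoxc12 was found in 22 mESC (10.2%). Hoxa7 and Hoxc12 were not listed in CB, and Hoxc4 was not listed in CPCC. Pool 1 held 20 of the 24 cells with Hoxa7. Of the exon bases of Hoxa7, 20.4% are shared with the antisense gene Hoxaas3.

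The other genes at the posterior ends were rare. Hoxa13, needed for digits, genital tubercle and hindgut, was seen in 4 cells of CB, 2 of mESC and 2 of CPCC. The 4 CB cells held 99, 28, 161 and 93 counts and all came from pool 1, where it gave 6.11 CPM. In pools 2 and 3 it was found in 0 of 78 and 0 of 85 cells, which allows shares of up to 3.85% and 3.53%. Hoxd13 was found in 4 mESC, 3 CPCC and 1 CB cell. Hoxb13 was found in 5 mESC and 2 CPCC cells and was not listed in CB, where Hoxb9 in 1 cell (69 counts) was the last listed gene of cluster B.

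**Figure D2:**
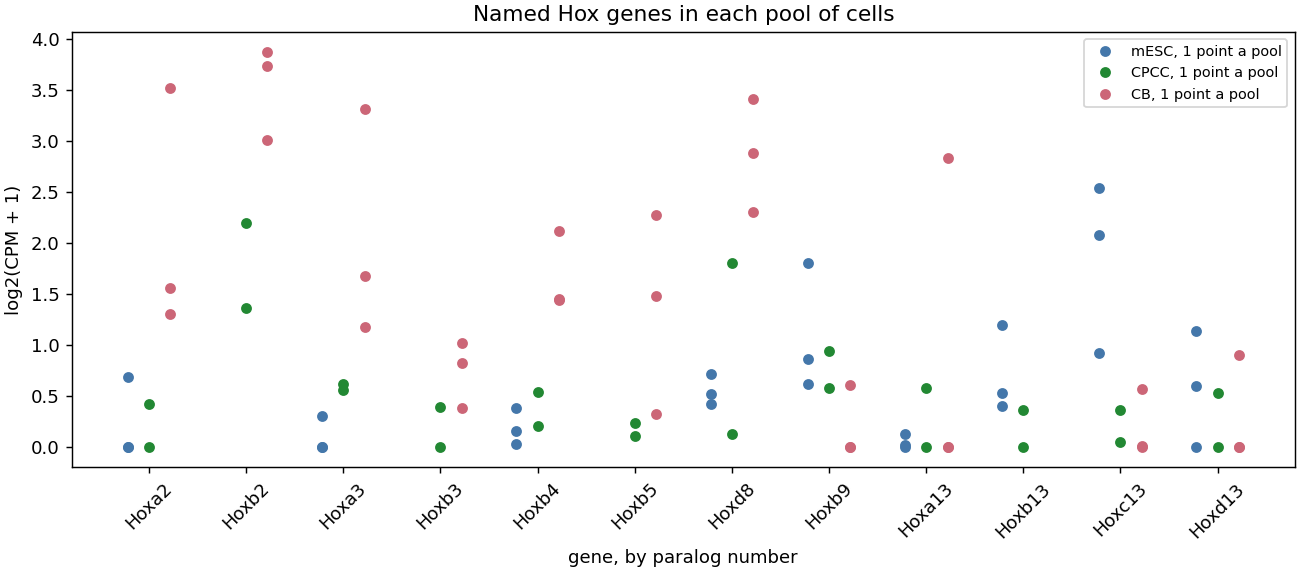
Level of the named Hox genes, as log2 of CPM + 1, with genes ordered by paralog number and 1 point for each pool of mESC (3), CPCC (2) and CB (3). Points of CB lie highest for Hoxa2, Hoxb2, Hoxa3, Hoxb4 and Hoxd8, and points of mESC lie highest for Hoxc13.

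The plot of pools shows where a level rested on 1 pool. Hoxa13 in CB and Hoxa2 in mESC were each held by 1 pool, while Hoxb2, Hoxb4 and Hoxd8 were seen in every pool of CB.

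How far posterior a cell reached was read from the highest paralog number with a count in it. Its median over bearing cells stood at 12 for mESC, 7 for CPCC and 4 for CB. A posterior gene was the highest in 124 of 155 bearing mESC (80%, 72.8 to 86.0%), 19 of 60 CPCC (31.7%, 20.3 to 44.96%) and 19 of 101 CB cells (18.8%, 11.7 to 27.8%). In CB, 62 of the 101 bearing cells went no further than group 4, and 20 stopped in groups 5 to 8. Within CB the most frequent end points were group 2 (26 cells), group 4 (17 cells) and group 3 (15 cells), whereas 77 mESC and 7 CB cells reached group 13.

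The order of the cultures held at 10 or more counts, with 65.7%, 25% and 15.1%. Without Hoxc13 the shares were 62.4% in mESC, 27.6% in CPCC and 17.8% in CB, and over the 17 members common to every table they were 79.4%, 37.5% and 18.8%. Both settings were chosen after the values were seen. The CB pools differed widely, at 11 of 34 (32.4%), 6 of 26 (23.1%) and 2 of 41 bearing cells (4.88%), and the CPCC pools at 45.7% and 12%. Without pool 3 the share in CB was 28.3%.

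**Figure D3:**
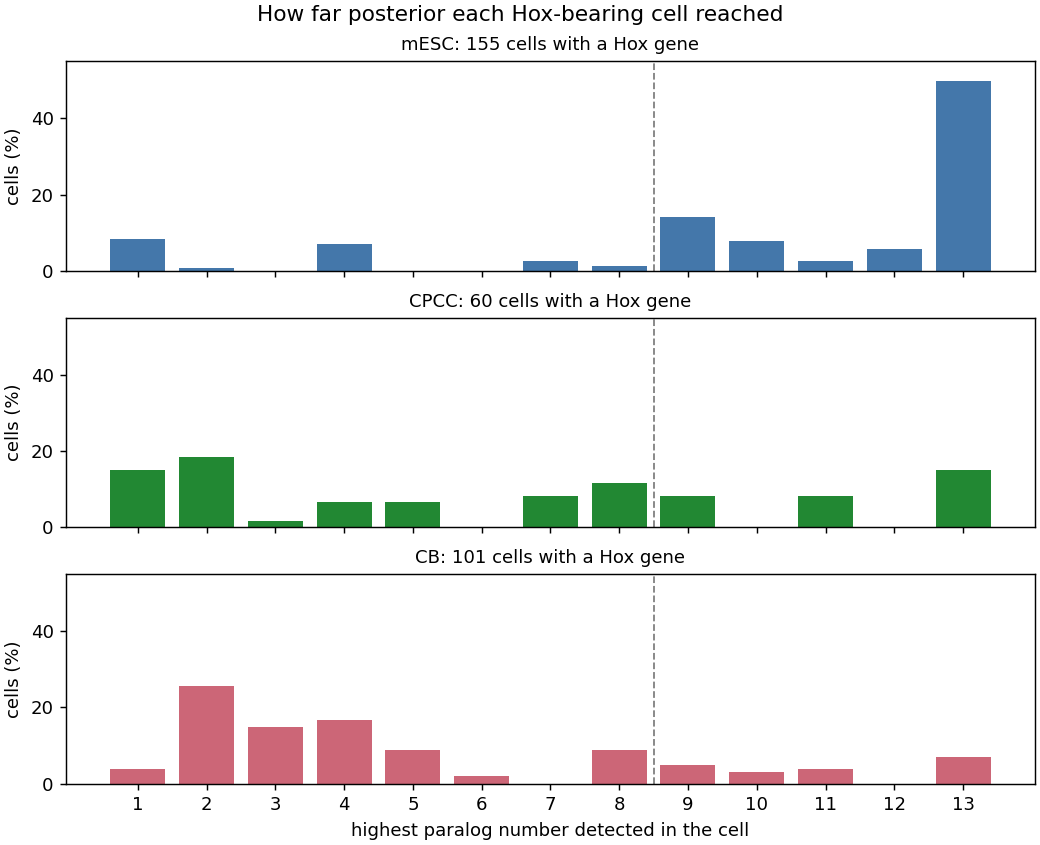
Percent of Hox-bearing cells by the highest paralog number detected in the cell, for mESC (155 cells), CPCC (60 cells) and CB (101 cells). The dashed line separates central from posterior groups. In mESC the highest bar stands at group 13 (77 cells) and in CB at group 2 (26 cells).

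The distribution of end points had its mass on opposite sides of the line in mESC and CB, and CPCC cells were spread on both. The CPCC bars rest on 60 cells, so bars that hold few cells have wide counting error.

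The 19 CB cells with a posterior gene were few enough to describe. In 6 of them the posterior members had fewer than 3 counts in all, among them 1 of the 2 endothelial-like cells and 1 of the 2 cells of pool 3. In mESC this was so for 22 of 124 cells and in CPCC for 2 of 19. In pool 1, a cell held Hoxa10 (24 counts), Hoxa13 (99), Hoxc10 (33) and Hoxd11 (20), and another held Hoxa10 (136), Hoxc10 (68), Hoxc11 (73), Hoxd8 (4) and Hoxd11 (47). Both cells had posterior members from 3 clusters and no anterior member. A further pool 1 cell held Hoxa10 (15), Hoxc9 (15), Hoxd10 (14) and Hoxd13 (54). In pool 3, a cell held Hoxc13 (70) together with Hoxa5 (57), Hoxb3 (25), Hoxb5 (24) and Hoxc4 (64), so posterior and anterior genes were also found side by side.

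Among CB cells without a posterior gene, the cell with most members held 7, namely Hoxa3 (170 counts), Hoxa4 (130), Hoxb2 (77), Hoxb4 (74), Hoxb5 (7), Hoxb6 (67) and Hoxc6 (47). Its members covered every paralog group from 2 to 6, in 3 clusters. In CPCC, 1 cell of pool 1 held 20 members, Hoxc13 among them, with Hoxa10 highest at 221 counts, and 2398459 counts in all. That cell gave 510 Hox counts, and without it the CPCC sum was 11.6 CPM in place of 13.4, and the posterior share of bearing cells 30.5% in place of 31.7%.

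Members were also read in pairs, as the cells shared by both genes in percent of the cells of the rarer gene, summed over pairs. In CB the value was 24.8% for neighbours in a cluster, 16.1% for other pairs of the same cluster, 25.3% for pairs of the same paralog number in different clusters and 11.9% for all other pairs. In mESC the values were 22.7%, 23.1%, 12.5% and 16.0%. In CPCC they were 56.3%, 42.1%, 36.2% and 29.9%, where the cell with 20 members enters every pair it can form. Cells of 1 culture share pools and depth, so these percentages are a description.

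Cells of each culture were clustered with all Hox genes left out, so that the clusters could be compared for them. CB gave 4 clusters. Cluster 0 (89 cells) had Stmn1, Hmgb2, Hist1h2ap, H2az1 and Pclaf, genes of dividing cells, in front and is given no name. Its top 10 genes by fold were others, Afp and Apoa1 among them, and included 3 of the 7 endoderm markers, although 0 of the 7 were found in most of its cells. Leading genes of cluster 1 (80 cells) were Col3a1, Col1a2, Lum, Col1a1 and Sparc. It had 10 of 10 fibroblast markers in most cells, but Actg2, a smooth muscle gene, was the marker among its top 10 genes by fold, so it is called the collagen-led cluster. Cluster 2 (43 cells, Wfdc2, Upk1b, Cyp2f2, Upk3bl and Anxa1) was epithelial-like with 10 of 10 markers in most cells, and cluster 3, with Ramp2, Mest and Kdr ahead of Vim and Plvap in its 20 cells, met all 10 endothelial markers in the same way and is called endothelial-like. Fibroblast markers were also found in most cells of cluster 2 for 5 of 10.

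Every CB cluster held Hox genes, and they differed in which ones. A member was found in 28 of 43 epithelial-like cells (65.1%, 49.1 to 78.99%), 39 of 80 cells of the collagen-led cluster (48.8%, 37.4 to 60.2%), 9 of 20 endothelial-like cells (45%, 23.1 to 68.5%) and 25 of 89 cells of cluster 0 (28.1%, 19.1 to 38.6%). The sums were 48.7, 70.4, 48.1 and 17.7 CPM. A lone cell gave most of the endothelial-like sum of 48.1 CPM. That cell held 518 counts of Hoxd8, 134 of Hoxb5, 126 of Hoxb4 and 93 of Hoxd9. The intervals of the epithelial-like cluster and cluster 0 did not overlap, while those of neighbours in this order did.

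The clusters were unevenly spread over pools, and all endothelial-like cells came from pool 2. Within pool 1 the shares were 72.7% of 11 epithelial-like cells, 58.8% of 34 collagen-led cells and 25% of 24 cells of cluster 0. Within pool 3 they were 62.5% of 32, 41.3% of 46 and 28.6% of 7 cells. Within pool 2 they were 45% of 20 endothelial-like cells and 29.3% of 58 cells of cluster 0. The order was the same in each pool, although the intervals within pools are wide.

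The epithelial-like cells held mainly anterior members. All 28 bearing cells had an anterior member, 3 had a central member and 0 of 43 had a posterior one, which allows a share of up to 6.98%. Hoxb2 was found in 16 of these cells (17.0 CPM), Hoxb4 in 7 and Hoxa3 in 6 (13.4 CPM). The cell with 41.5% of all Hoxa3 counts in CB was among those 6, so the Hoxa3 level here rested largely on 1 cell. In the collagen-led cluster 32 cells had an anterior, 18 a central and 10 a posterior member, and it held 16 cells with Hoxb2 (13.3 CPM), 12 with Hoxd8 (10.5 CPM) and all 4 with Hoxa13. Its posterior cells were 8 of 34 in pool 1 (23.5%) and 2 of 46 in pool 3 (4.35%), and 32 of the 43 epithelial-like cells came from pool 3. Without pool 1 the posterior share of the collagen-led cells was thus the 4.35% of pool 3.

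In the endothelial-like cluster 7 cells had an anterior, 5 a central and 2 a posterior member. Its central sum (33.4 CPM) lay above its anterior sum (11.4 CPM), with Hoxb5 at 13.6 CPM in 4 cells and Hoxd8 at 17.8 CPM in 1 cell. That 1 cell held 518 counts of Hoxd8 and 134 of Hoxb5, so most of the central sum came from it. Hoxb2 was found in 0 of 20 cells, which allows a share of up to 15%. Cluster 0 held Hoxb2 in 12 of 89 cells and a posterior member in 7 cells. Over CB, 10 of the 19 cells with a posterior gene were collagen-led, 7 were in cluster 0 and 2 were endothelial-like.

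In CPCC, the cluster with Acta2, Sparc and Tagln in front, followed by Anxa2 and Vim (cluster 1, 56 cells), held a member in 32 cells (57.1%, 43.2 to 70.3%) at 27.7 CPM. The pluripotent-like cluster 0 (66 cells) held one in 18 cells (27.3%) at 5.39 CPM, and cluster 2 (29 cells, led by Slc2a3, Car4 and Tdgf1) in 9 cells (31.0%). By pool, cluster 1 held one in 17 of 19 and 15 of 37 cells. The blood-like cluster 3 (14 cells, Spp1, C1qb, C1qc, Fcrls and Ctsb), all from pool 2, held a member in 0 of 14 cells, which allows a share of up to 21.4%. Hoxb2 was found in 16 cells of cluster 1 (28.6%), 4 of cluster 2 (13.8%) and 4 of cluster 0 (6.06%).

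**Figure D4:**
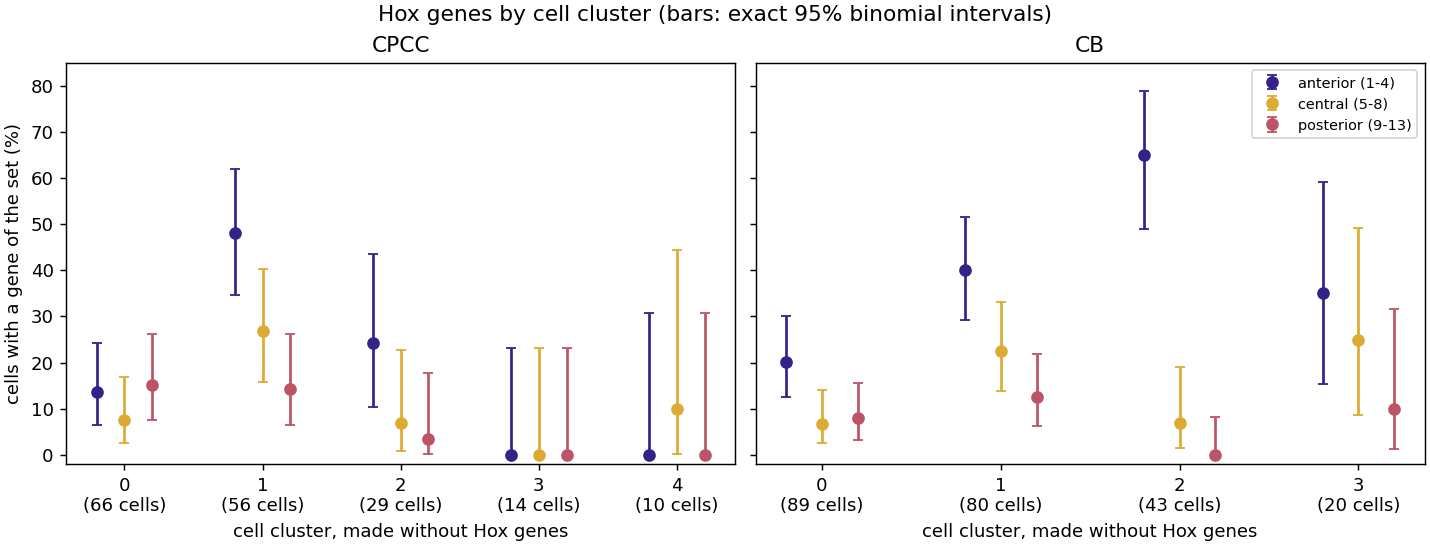
Percent of cells with an anterior, central or posterior Hox gene in the cell clusters of CPCC (left) and CB (right), with exact 95% binomial intervals for counting error. Cluster 2 of CB is highest for anterior genes (65.1%) and has no cell with a posterior gene.

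The 3 mESC clusters were all pluripotent-like. A member was found in 71 of 85, 39 of 69 and 45 of 61 cells. The first of these, which held 83 of the 90 cells of pool 1, had 34.5 CPM, against 15.1 and 11.5 CPM in the others. In each, more cells held a posterior (53, 33 and 38) than an anterior member (42, 14 and 15).

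The known partners and regulators were counted on lists. Of 9 TALE cofactors, 6 were higher by 2-fold or more in CB than in mESC and 0 were lower, beside 24.9% higher and 11.3% lower among all genes in that comparison. The median log2 ratio was 2.11. Meis2 gave 14.3 CPM in mESC, 10.8 in CPCC and 152 in CB, and Meis1 gave 1.01, 26.2 and 61.5 CPM. By pool, Meis2 gave 188, 139 and 149 CPM in CB against 29.8, 8.75 and 5.16 CPM in mESC. It had a count in 179 of 232 CB cells, more than the 101 with a Hox gene.

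Of the 12 listed genes of the retinoic acid pathway, 8 were higher by 2-fold or more in CB than in mESC and 1, Aldh1a3, was lower (median 2.55), again beside 24.9% and 11.3% of all genes. Crabp2, which carries retinoic acid in the cell, gave 2.96 CPM in mESC, 38.1 in CPCC and 87.3 in CB, Crabp1 gave 16.4, 14.3 and 80.04 CPM, and Rarb, a receptor that is itself a retinoic acid target, 0.412, 1.22 and 63.6 CPM. The CB pools of Rarb gave 78.3, 22.1 and 95.4 CPM. The pool with least Rarb, pool 2, was also that with least summed Hox, but it held no collagen-led or epithelial-like cell, as described above. A link between Rarb and Hox levels was not tested, and it would rest on 3 pools of unlike cell makeup.

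Cdx1, which acts upstream of central and posterior Hox genes, gave 18.3 CPM in 106 mESC and 5.42 CPM in 31 CPCC cells and was not listed in CB. Its mESC pools gave 41.5, 7.13 and 8.25 CPM. Of 9 genes on the list of ParaHox and cluster neighbours, 2 were listed in both CB and mESC and neither differed by 2-fold. Cdx2 was not listed in any table. Of 7 listed posterior patterning genes, 4 were higher and 2 were lower by 2-fold or more in CB than in mESC, the latter being Sall4 (141, 62.1 and 21.2 CPM in mESC, CPCC and CB) and Nkx1-2, where 24.9% of all genes were higher and 11.3% lower.

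Of 20 Polycomb and Trithorax genes, 7 were higher and 6 lower by 2-fold or more in CB than in mESC (median 0.27). Among all genes 24.9% were higher and 11.3% lower, so the share of higher members was not far from that of all genes. Eed, a core subunit of Polycomb complex PRC2, gave 325, 229 and 64.7 CPM, Suz12 of the same complex 197, 65.5 and 50.9 CPM, and Wdr5, a subunit of Trithorax-type complexes, 230, 87.9 and 46.9 CPM. Ezh2, the PRC2 methyltransferase, gave 147, 73.7 and 78.5 CPM, a log2 ratio of -0.90. The lower members thus included PRC2 subunits, while Phc2 and Kdm6b were among the higher ones.

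Of 5 non-coding genes of the Hox regions listed in both, 2 were higher and 1 lower by 2-fold or more in CB than in mESC (24.9% and 11.3% of all genes). Hotairm1, a long non-coding RNA of cluster A, gave 0.202 CPM in mESC, 0.308 in CPCC and 2.37 in CB, and Hoxaas2 gave 0.0587, 0.373 and 2.83 CPM. Halr1, which lies beside cluster A, gave 7.50, 4.28 and 1.42 CPM, in 143, 56 and 24 cells. Its CPCC pools gave 8.23 and 0.568 CPM, and pool 1 lay above the mESC value, so the lower level in CPCC rested on pool 2. The CB pools gave 0.722, 0.212 and 2.82 CPM, below the mESC pools at 6.91, 10.1 and 4.69 CPM. Of 15 listed position factors outside the clusters, 11 were higher by 2-fold or more in CB than in mESC and 0 were lower, beside the same shares of all genes (24.9% and 11.3%). Isl1 was at 1.44, 1.99 and 37.6 CPM and Foxf1, not listed in mESC, at 0.391 and 34.7 CPM in CPCC and CB.

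Genes that varied with the summed Hox level across CB cells were weakly related to it. Over 219 cells and 9730 genes the highest Spearman rho was 0.31 (Col16a1), and Tshz2, Ltbp4, Chd3, Hotairm1, Dcn, Gm12854, Ahnak2, Emilin1 and Tgfb3 followed. The lowest was -0.29 (Gm12416), followed by Gm12115, Brca2, Kars and Rpl7a-ps7. The Hox sum had a rho of -0.08 with depth. Rank correlations this weak in sparse counts are given as a description only, and cells of a pool share their library.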

How the data were processed

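Single cells were captured on Fluidigm C1 chips and sequenced. Per the labels and the methods, the authors aligned reads with STAR 2.7 to GRCm38 (mm10), and the counting model and use of strand are not given in the sources used here. The deposited tables held unscaled estimated counts for mESC and CB (24.3% and 24.6% of values above 0 were not within 0.01 of a whole number) and whole counts for CPCC. In CPCC, 208 rows with no gene and 23 symbols turned into dates (0.139% of counts) and 2 columns of no sample were left out.

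The counts of all cells in a sample were added up and divided by the total (CPM). The culture in a table's name tied it to its sample, and pools were not used as replicates. A gene was detected at 1 or more counts. Shares carry exact Clopper-Pearson and sums exact Poisson intervals at 95%, and 3 counts were taken as the limit a count of 0 allows. The members, lists and tests were chosen with earlier results of these data known. Named genes were the 8 members in the largest share of CB cells and the 4 in the largest share of CPCC cells, the last listed member of each cluster, up to 4 leading genes of each list, the 10 highest and 5 lowest correlates and 5 leading genes of each CB cell cluster. A few of these genes are not reported here, although sums, shares and counts over lists include them. Clusters were made with Seurat 5.3.0 (scale factor 10000, 10 principal components, resolution 0.6) without Hox genes. No doublet caller was run. Code was tested on simulated counts. Tools were R 4.3.3, edgeR 4.0.16 and DESeq2 1.42.0 (scaling only), Python 3.11.15, numpy 2.4.6, pandas 2.3.3 and scipy 1.17.1. Alternatives were other scalings, pseudocounts, detection limits, thinning, cell filters, pools or cells left out, and cluster settings.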

Additional observations from a re-analysis of the deposited data

How the results depend on the processing

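Each group is 1 sample, so differences carry no replicate error, and intervals cover counting error only. Genes without a value in a table limit every comparison. No paired analysis was possible because the groups hold no replicate numbers and no test was made. The summed Hox level in mESC, CPCC and CB was 20.5, 14.003 and 41.1 CPM with edgeR TMM factors, 21.0, 13.9 and 40.4 CPM with DESeq2 size factors, 22.4, 15.0 and 50.8 CPM when mitochondrial genes and the 20 top genes were taken out, 18.3, 11.6 and 42.1 CPM without the cell of highest Hox counts, and 12.1, 8.66 and 26.2 CPM over members in all 3 tables. It was 46.3 CPM in CB when cells were weighted equally, and 11.6 CPM in CPCC and 43.2 CPM in CB without the cell with the most members. CB stayed highest and CPCC lowest under each of these.

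The median log2 ratio of CPCC against mESC was -0.21 without the cell of highest Hox counts, -0.33 with a pseudocount of 0.1 CPM and -0.36 over genes at 1 CPM or more. CB against mESC gave 0.61 and 0.019 with pseudocounts of 0.1 and 10 CPM and 1.05 over genes at 1 CPM or more. CB against CPCC gave 0.40 with the same weight for every cell, 0.40 without the cell of highest Hox counts, 1.03 and 0.023 with those pseudocounts and 1.22 over genes at 1 CPM or more. No setting reversed a direction. The members higher by 2-fold or more in CB than in mESC numbered 5 under TMM and 5 under DESeq2 scaling, 7 as reported and 9 with genes listed in 1 table set to 0.

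The share of cells with a Hox gene was 56.3% in mESC and 26.9% in CPCC at 5 or more counts, 48.8% and 22.9% at 10 or more, and 58.6%, 22.9% and 29.7% in mESC, CPCC and CB over members in all 3 tables. It was 61.9% in mESC without Hoxc13. A posterior gene was the highest in 71.1% of bearing mESC at 5 or more counts, 65.7% at 10 or more and 62.4% without Hoxc13, and in 28.3% of bearing CB cells without pool 3 and 11.9% without pool 1. The highest and lowest shares of a CB cell cluster stayed within the counting interval, between 62.8% and 65.1% and between 20% and 30.1%. At a detection limit of 1 count a low gene missed in a cell cannot be told from a gene that is off.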
